A study of Rattus norvegicus with 18 samples.

Results

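Glycolysis and the routes open to its product, pyruvate, were followed through 35 named genes of rat epiblast and primordial germ cells (PGC). The genes were taken by symbol from a table of 32545 lines, and 33 of the 35 had a line there, Pkm and Pfkfb4 having 2 each. Tigar and Pdha1 had none under these symbols. A filter that kept lines with at least 1 RPKM (a read count scaled by gene length and by library depth) in at least 2 libraries left 30 of the 35 genes among 14865 tested. A gene can pass it through the group in which it is high, and Eno2, Slc2a3 and Tpi1 did not pass it.

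The 18 libraries came from rat embryos of the Crlj:WI strain. All groups, epiblast included, carried the genotype Prdm14-Venus, a fluorescent reporter of the germ line regulator Prdm14. PGC gave 12 libraries: 2 each at embryonic day (E) 9.5, 10.5, 11.5 and 12.5, with no labelled sex, and 2 female and 2 male libraries at E15.5. Epiblast, the pluripotent layer from which the embryo and the germ line derive, gave 6 libraries, with 1 female and 2 male at each of E7.25 and E7.75. The labels name no separate animals for the replicates. The p-values therefore reflect how far these libraries differ, a spread that may be technical. In bulk RNA of this kind, fewer cells of a type and less RNA per cell cannot be told apart.

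Glycolysis splits glucose into pyruvate in the cytosol and yields ATP without oxygen. Lactate dehydrogenase turns pyruvate into lactate, which monocarboxylate transporters carry out of the cell, or it works in the opposite direction. Pyruvate that enters mitochondria is made into acetyl-CoA by the pyruvate dehydrogenase complex, which PDK kinases switch off and PDP phosphatases switch on. Epiblast-stage pluripotent cells are known in mouse and human for strong glycolysis, and mouse PGC for a shift towards oxidative metabolism.

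Read depth was judged from the steps between low values. Relative to the E7.75 female library it was 82.6% to 121% in 14 libraries, but 20.7% to 22.9% in the 4 taken at E10.5 and E11.5, where low values are least precise. Summed RPKM of 8 PGC marker genes was 423 to 850 in PGC and 5.56 to 20 in epiblast libraries. The E9.5 libraries also carried markers of other cells: 6 extraembryonic mesoderm and allantois genes summed to 388 and 389 RPKM there and to at most 39.9 RPKM elsewhere. The 6 gut epithelium genes summed to 365 and 541 RPKM at E9.5 and to at most 120 RPKM elsewhere. In epiblast this list was at 97.3 to 120 RPKM. At E9.5 the 6 mesenchyme genes summed to 159 and 168 RPKM, against at most 22.4 RPKM elsewhere. Endothelium genes summed to 28.1 and 111 RPKM at E9.5 and to at most 5.27 RPKM elsewhere. Somatic gonad genes summed to 33.7 and 64.9 RPKM at E9.5 and to at most 46.8 RPKM elsewhere. The part of these markers in the results that involve E9.5 was not tested. The comparison of all PGC with epiblast is also given without the E9.5 libraries. Replicates differed by a median absolute log2 value of 0.404 (E9.5), 0.335 (E10.5) and 0.332 (E15.5 female), and elsewhere by 0.221 to 0.273. As 1 estimate of the spread was shared by all libraries, p-values that rest on those 3 groups can be too small.

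Several members of the pathway were listed near 0 in all or nearly all libraries. Gapdh, the glyceraldehyde-3-phosphate dehydrogenase that joins the upper and lower parts of glycolysis, lay between 0.0632 and 2.08 RPKM. Tpi1, the triose phosphate isomerase just above it, was listed at 5.25 RPKM in E7.25 male replicate 2 and at 0.0777 RPKM or less in the other 17 libraries. The neuronal enolase gene Eno2 was listed at 0 in all 18. Slc2a3, the glucose transporter GLUT3, reached 0.343 RPKM, Pfkfb4 2.15, Pdk4 2.32 and Pfkfb2 4.54 RPKM. Thus 6 members (Eno2, Gapdh, Pdk4, Pfkfb2, Pfkfb4 and Slc2a3) stayed under 5 RPKM in all libraries. Actb, a gene used by every cell, ranged from 2287 to 6076 RPKM, whereas Fau, another such gene, was listed at 0 throughout, so a listed 0 need not mean absent RNA.

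Copies of these genes bear on the values. RefSeq (assembly GRCr8) lists 78 pseudogene copies named after Gapdh, 30 each after Eno1 and Ldha, 19 after Pkm, 13 after Pgam1, 9 after Aldoa, 8 after Pgk1 and 3 after Tpi1. Of the Gapdh copies, 1 had a line of its own in the deposited data, which reached 1.38 RPKM. How reads shared with copies were counted is not given in the sources used here, so the levels of these genes are uncertain. Of the E1 alpha subunit of pyruvate dehydrogenase, the table held Pdha1l1, a related gene, at 9.28 to 74.6 RPKM, and the testis form Pdha2 at 0 to 11.6 RPKM.

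**Figure D1:**
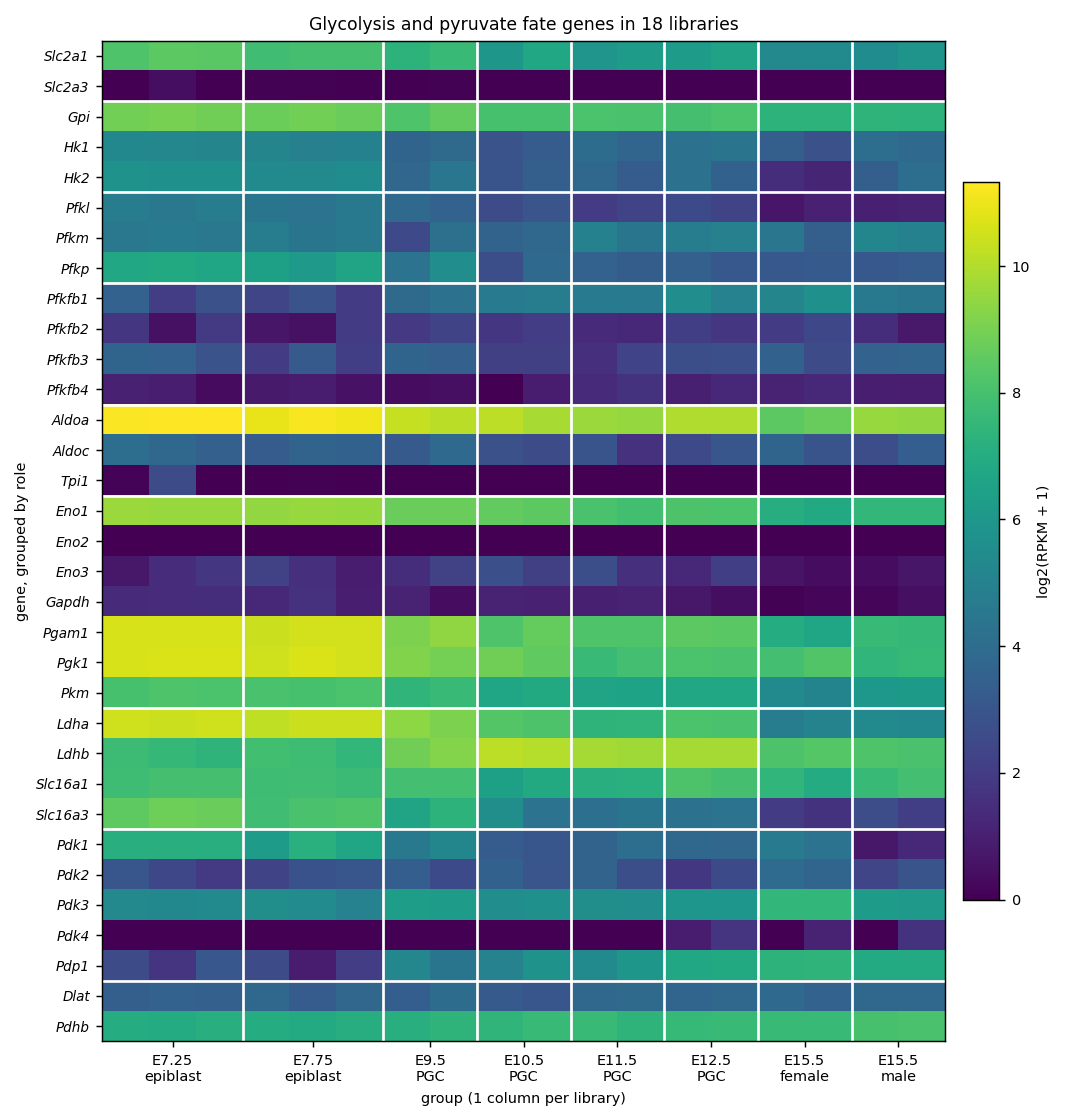
Values of the 33 member genes with a line in the table, as log2(RPKM + 1), with 1 column per library and groups in order of age. Most rows darken from the epiblast columns on the left to the E15.5 columns on the right, Ldhb and Pdp1 brighten, and Eno2, Slc2a3, Tpi1 and Gapdh stay dark throughout.

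The first comparison set the 12 PGC libraries against the 6 of epiblast. All epiblast libraries were younger than all PGC libraries, so cell type and age cannot be told apart in it. Most genes from glucose uptake to lactate export were lower in PGC, while Ldhb, Pdp1, Pdhb, Pfkfb1 and Pdk3 were higher. Of these, Pdp1 encodes an activator of pyruvate dehydrogenase and Pdk3 an inhibitor. Of the 30 tested members 17 fell, 5 rose and 8 did not pass at an adjusted p of 0.05 (limma on log2(RPKM + 1), Benjamini-Hochberg over all tested genes). Over all 14865 genes 26.4% fell and 32.1% rose. The median log2 fold change was -0.721 over the members and 0.0941 over all tested genes. In 14 members every PGC library was below every epiblast library, and in 3 every PGC library was above; the same held for 6.07% and 5.63% of all tested genes. Without the E9.5 libraries the counts were again 17 lower and 5 higher. Its SEs come from replicates within the 8 groups, in which epiblast of both sexes stood together, and do not hold the variation between ages. Sex was not balanced between the cell types, since 8 PGC libraries carry no sex label.

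RNA of the genes that take up and trap glucose was lower in PGC. Slc2a1, the glucose transporter GLUT1, had a lowest, median and highest value of 39.8, 67.5 and 198 RPKM in PGC and of 228, 273 and 350 RPKM in epiblast, a log2 fold change of -1.93 ± 0.11 (SE; limma adjusted p = 2.6e-09). Hk2 and Hk1, the hexokinases that trap glucose in the cell as glucose 6-phosphate, fell too. Hk2 had 1.24, 10.1 and 20.5 RPKM in PGC and 40.8, 47.1 and 53.1 RPKM in epiblast as lowest, median and highest values (-2.27 ± 0.16). Hk1 ranged from 6.02 to 19.4 RPKM in PGC and from 29.5 to 38.4 RPKM in epiblast (-1.44 ± 0.12). Gpi, which isomerizes glucose 6-phosphate, fell less, with 158 to 387 RPKM in PGC and 418 to 510 RPKM in epiblast (-0.996 ± 0.06). No PGC library reached the lowest epiblast library for any of these 4 genes.

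At the phosphofructokinase step, where glycolysis is committed, the subunits did not move alike. Pfkp, the platelet-type subunit, had 5.53, 8.96 and 46 RPKM in PGC and 69.4, 98.4 and 118 RPKM in epiblast as lowest, median and highest values (log2 fold change -3.02 ± 0.19, limma adjusted p = 7.72e-09). Pfkl, the liver-type subunit, fell to 4.70 ± 4.13 RPKM in PGC, against 22.5 ± 2.77 RPKM in epiblast (SD, n = 12 and 6). Pfkm, the muscle-type subunit, averaged 20.8 ± 9.86 RPKM in PGC and 23.1 ± 2.15 RPKM in epiblast, and this difference did not pass (-0.32 ± 0.21, limma adjusted p = 0.213). Of the summed RPKM of the 3 subunits, Pfkm made up 55.7% in PGC (12.4% to 80.4%) and 16.6% in epiblast (14.7% to 20%), and Pfkp 31.9% in PGC (17.4% to 61.9%) and 67.4% in epiblast (64.1% to 71.7%). The Pfkm share of E9.5 PGC, 12.4% and 23.4%, was like that of epiblast, and from E10.5 on it was at least 38.6%. The sum itself was 38.3 ± 14.1 RPKM in PGC and 141 ± 19.5 RPKM in epiblast. Among the bifunctional enzymes that set fructose 2,6-bisphosphate, the activator of this step, Pfkfb1 rose 4.99-fold, with 14.2 to 50.1 RPKM in PGC and 3.02 to 10.8 RPKM in epiblast (2.15 ± 0.20). Pfkfb3 was 7 ± 3.69 RPKM in PGC and 7.22 ± 3.62 RPKM in epiblast and did not pass, nor did Pfkfb2 and Pfkfb4, both listed near 0.

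The abundant enzymes of the lower pathway fell together. Pgam1, phosphoglycerate mutase, had 104, 295 and 689 RPKM in PGC and 1373, 1535 and 1581 RPKM in epiblast as lowest, median and highest values (log2 fold change -2.44 ± 0.07). Pgk1, phosphoglycerate kinase and the first ATP-yielding step, had 174, 271 and 570 RPKM in PGC and 1435, 1600 and 1661 RPKM in epiblast (-2.42 ± 0.07). Both were about equally far apart between the cell types, with wide gaps between the ranges. Eno1, the main enolase, averaged 271 ± 108 RPKM in PGC and 755 ± 27.1 RPKM in epiblast (-1.59 ± 0.05). Pkm, pyruvate kinase, averaged 101 ± 48.3 RPKM in PGC and 271 ± 11.6 RPKM in epiblast (-1.58 ± 0.06), and its second line fell alike (-1.63 ± 0.07). Aldoa, the most abundant member, averaged 857 ± 287 RPKM in PGC and 2333 ± 213 RPKM in epiblast (-1.53 ± 0.06). Aldoc, another aldolase, fell with overlapping ranges (-0.71 ± 0.22), and without the E10.5 and E11.5 libraries it no longer passed (-0.49, limma adjusted p = 0.0502). Gapdh also passed (-0.73 ± 0.15) but at 0.618 ± 0.449 RPKM in PGC and 1.62 ± 0.381 RPKM in epiblast. Eno3, the muscle enolase, did not pass at 2.39 ± 1.96 RPKM in PGC and 1.84 ± 1.07 RPKM in epiblast.

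**Figure D2:**
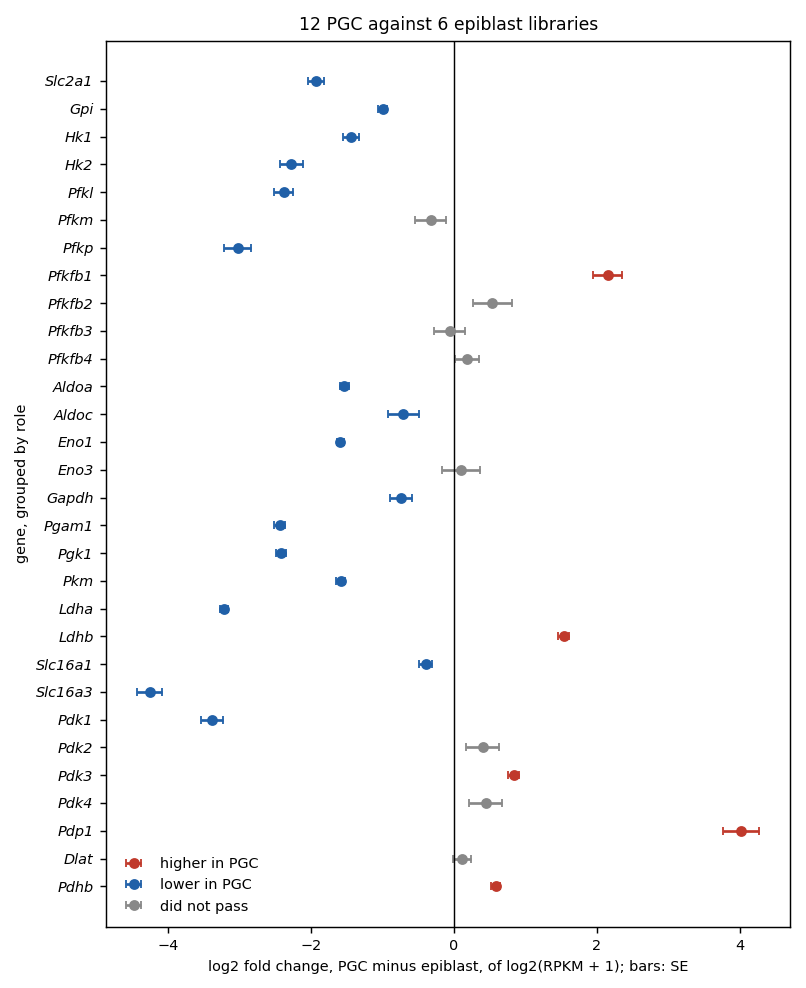
Log2 fold changes of the 30 tested members between 12 PGC and 6 epiblast libraries, with SE bars, in order of their role in the pathway. Points left of the line are lower in PGC, those that passed running from -4.25 for Slc16a3 to -0.39 for Slc16a1, and Pdp1 at 4.02 is farthest to the right; grey points did not pass.

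The lactate dehydrogenase subunits changed in opposite directions. Ldha, the M subunit that favours lactate formation, had 26.1, 217 and 666 RPKM in PGC and 1203, 1362 and 1446 RPKM in epiblast as lowest, median and highest values (log2 fold change -3.21 ± 0.06, limma adjusted p = 6.51e-14). Ldhb, the H subunit that favours use of lactate, had 264, 712 and 1174 RPKM in PGC and 165, 200 and 234 RPKM in epiblast (1.54 ± 0.08, limma adjusted p = 8.86e-10). The ranges of the cell types did not overlap for either gene. Ldhb made up 77.5% of the summed RPKM of both subunits in PGC (41.1% to 91.5%) and 12.9% in epiblast (10.2% to 16.3%). The sum was 899 ± 444 RPKM in PGC and 1562 ± 76.3 RPKM in epiblast.

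Of all members, the transporter gene of lactate export fell farthest. Slc16a3, or MCT4, which is typical of cells that release lactate, had 2.13, 18 and 157 RPKM in PGC and 232, 327 and 446 RPKM in epiblast as lowest, median and highest values (log2 fold change -4.25 ± 0.17, limma adjusted p = 1.04e-10). Slc16a1, or MCT1, which carries lactate and pyruvate in either direction, averaged 187 ± 65.4 RPKM in PGC and 232 ± 16.3 RPKM in epiblast. Its fall of -0.39 ± 0.09 passed (limma adjusted p = 0.00146), but not with PGC and epiblast fitted as 2 groups (limma adjusted p = 0.153) nor without the E10.5 and E11.5 libraries (-0.11, limma adjusted p = 0.273). Slc16a3 made up 13.4% of the summed RPKM of both transporters in PGC and 58.6% in epiblast.

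Since both lactate dehydrogenase genes and Slc16a3 carry the contrast between the cell types, the 250 bases upstream of their RefSeq starts (GRCr8) are shown for comparison. Capitals mark every ACGTG or GCGTG on either strand, the core letters bound by hypoxia-inducible factors and, within CACGTG, by MYC. The windows are chr1:106507842-106508091 on the plus strand for Ldha, chr4:177177409-177177658 on the minus strand for Ldhb, and chr10:106712078-106712327 on the plus strand for Slc16a3, each printed along its gene.
Ldha: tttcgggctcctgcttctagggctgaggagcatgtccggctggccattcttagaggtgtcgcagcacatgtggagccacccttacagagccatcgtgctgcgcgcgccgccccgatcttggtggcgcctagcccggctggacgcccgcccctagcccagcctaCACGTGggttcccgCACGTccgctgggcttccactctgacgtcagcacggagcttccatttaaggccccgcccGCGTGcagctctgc
Ldhb: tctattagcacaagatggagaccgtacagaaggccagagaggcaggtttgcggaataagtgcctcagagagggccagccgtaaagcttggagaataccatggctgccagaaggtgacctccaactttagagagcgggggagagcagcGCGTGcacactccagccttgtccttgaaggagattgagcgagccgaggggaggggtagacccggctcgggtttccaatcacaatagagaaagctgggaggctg
Slc16a3: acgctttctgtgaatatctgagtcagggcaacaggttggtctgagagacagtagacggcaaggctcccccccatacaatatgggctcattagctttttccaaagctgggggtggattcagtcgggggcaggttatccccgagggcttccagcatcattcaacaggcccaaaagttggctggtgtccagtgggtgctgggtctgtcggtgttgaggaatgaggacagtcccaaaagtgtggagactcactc
The Ldha window held 3 marked stretches, 1 of them the palindrome CACGTG, the Ldhb window held 1 and the Slc16a3 window 0. No match says only that these letters are not in this window. Such letters are common: 36.7% of 33469 RefSeq promoter windows of this length held at least 1 match, as did 61.1% of the 36 windows of the 32 members in that table. Both motifs can overlap, and a match is no evidence of binding.

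The switch that governs entry of pyruvate into the citric acid cycle differed as well. Pdk1, a kinase that inactivates pyruvate dehydrogenase and a known target of hypoxia-inducible factor 1, had 0.659, 12.7 and 35.7 RPKM in PGC and 74.5, 135 and 144 RPKM in epiblast as lowest, median and highest values (log2 fold change -3.38 ± 0.15, limma adjusted p = 3.01e-10). Pdp1, the phosphatase that reactivates the complex, had 20.3, 83.8 and 165 RPKM in PGC and 0.794, 4.09 and 7.32 RPKM in epiblast. It was the largest rise among the members, 21.9-fold by mean RPKM (4.02 ± 0.25, limma adjusted p = 8.96e-09). Neither gene overlapped between the cell types. Pdk3, another kinase of the complex, rose 2.02-fold with slightly overlapping ranges, 46.2 to 181 RPKM in PGC and 31.4 to 46.9 RPKM in epiblast (0.84 ± 0.08). The summed RPKM of the 4 kinase genes was 103 ± 55 in PGC and 167 ± 27.6 in epiblast, and Pdk3 held 76.9% of it in PGC and 24.5% in epiblast. In female E15.5 PGC this sum was 213.2 and 217.5 RPKM, above the 125.3 to 193.4 RPKM of epiblast. In the other PGC groups it was at most 115.9 RPKM. Pdhb, the E1 beta subunit, rose 1.53-fold, with 135, 196 and 268 RPKM in PGC and 120, 128 and 135 RPKM in epiblast as lowest, median and highest values (0.59 ± 0.06). Its lowest PGC value lay just inside the epiblast range. Dlat, the E2 subunit, averaged 11.9 ± 2.53 RPKM in PGC and 10.7 ± 1.5 RPKM in epiblast and did not pass, nor did Pdk2, at 7.78 ± 3.73 RPKM in PGC and 5.31 ± 1.82 RPKM in epiblast. Pdk4 reached 2.32 RPKM in PGC, while every epiblast library had it listed at 0, and it did not pass.

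**Figure D3:**
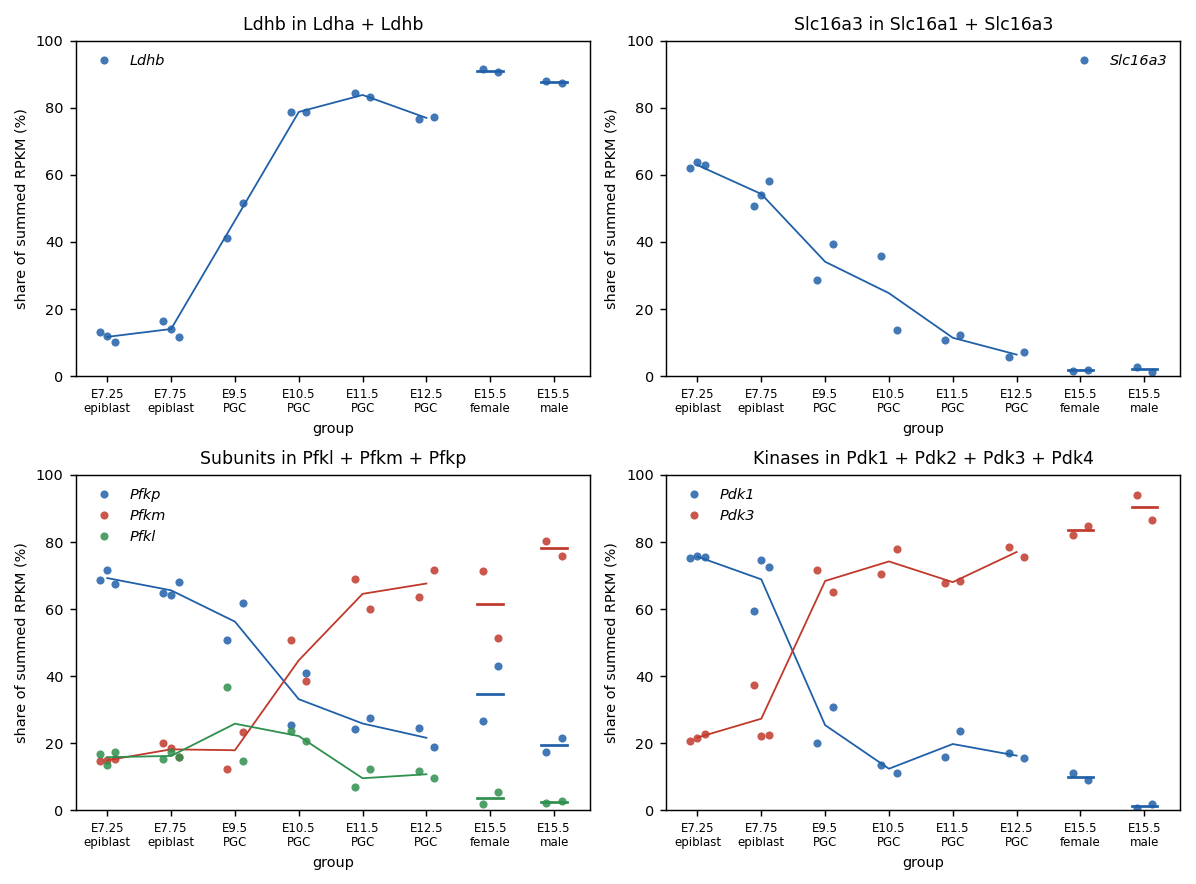
Share of each isoform in the summed RPKM of its family, in percent, by group in order of age; points are libraries, and lines join group means up to E12.5, with bars for the means of female and male E15.5 PGC. Ldhb is at 90.6% and 91.5% in female E15.5 PGC and at 10.2% to 16.3% in epiblast, and Slc16a3 averages 1.69% in female E15.5 PGC and 58.6% in epiblast.

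By age the abundant members took several courses. The group means below run from E7.25 and E7.75 epiblast through the PGC ages in turn (E9.5, then E10.5, E11.5, E12.5) to female and male E15.5 PGC, for the 16 members that averaged at least 100 RPKM in a group. The SD between replicates was 7.41% of the mean at the median of the 128 gene and group pairs and over 25% in 15 of them. Ldha averaged 1420, 1303, 607, 302, 166, 269, 29.4 and 38.9 RPKM, and Slc16a3 averaged 410, 265, 127, 32.9, 18.3, 18.3, 2.55 and 4.36 RPKM. Both were thus lowest in the E15.5 groups. Pgam1 averaged 1578, 1453, 616, 349, 294, 347, 116 and 190 RPKM. Eno1 averaged 772, 738, 424, 369, 253, 282, 124 and 178 RPKM. Aldoa averaged 2499, 2168, 1211, 1044, 759, 1004, 384 and 739 RPKM. These 3 enzymes had their lowest mean in female E15.5 PGC, and their higher means at E12.5 than at E11.5 did not pass. Pkm averaged 276, 267, 186, 110, 95.6, 107, 37.5 and 68.2 RPKM, and Gpi averaged 488, 443, 338, 258, 273, 262, 159 and 160 RPKM. Slc2a1 averaged 330, 242, 179, 84.3, 66.1, 83.1, 39.8 and 50.3 RPKM. All 3 were lower at E10.5 than at E9.5 and lower again at E15.5, and neither step between E10.5 and E12.5 passed for them. Pgk1 averaged 1620, 1532, 532, 421, 221, 271, 270 and 181 RPKM. Pfkp averaged 107, 84.2, 32.4, 9.53, 9.91, 8.96, 7.96 and 8.2 RPKM and was level from E10.5 on.

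Other courses rose or turned. Ldhb averaged 189, 212, 525, 1119, 860, 899, 299 and 279 RPKM in the same order, with its highest values at E10.5. Pdp1 averaged 4.90, 2.99, 28.6, 43.1, 52, 111, 162 and 120 RPKM. Pdhb averaged 129, 126, 150, 185, 183, 195, 200 and 263 RPKM. Pdp1 and Pdhb thus had their highest means at E15.5, in female PGC for Pdp1 and in male PGC for Pdhb. Slc16a1 averaged 241, 222, 241, 101, 142, 269, 148 and 221 RPKM, dipping at E10.5 and E11.5, the ages of the 4 shallow libraries. Pdk1 averaged 137, 107, 29.2, 8.06, 13.5, 12.7, 21.7 and 1.04 RPKM. Pdk3 averaged 39.3, 40.4, 78.3, 48.2, 46.4, 60.2, 180 and 70.6 RPKM. Both kinases were higher at E9.5 than at E10.5 and parted by sex at E15.5.

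Epiblast at E7.75 and E7.25 was compared to see whether the pathway moved before PGC were sampled. No member passed at E7.75 against E7.25 by limma, where 0.168% of all tested genes fell and 0.101% rose. At an unadjusted p under 0.05 in limma, 3 members were lower and 0 higher, as were 4.35% and 4.4% of all tested genes. These were Slc16a3, Slc2a1 and Pfkfb3. Slc16a3 had 232, 269 and 294 RPKM at E7.75, against 361, 446 and 424 RPKM at E7.25, and Slc2a1 averaged 243 RPKM at E7.75, against 330 RPKM at E7.25. The limma adjusted p was 0.545 for Slc16a3, 0.452 for Slc2a1 and 0.409 for Pfkfb3, in which the ages overlapped.

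The earliest PGC, of E9.5, were set against epiblast of E7.75, the latest epiblast sampled. Here too cell type and age differ together. Of the 30 members 14 fell and 5 rose (11.3% and 16.3% of all tested genes), with a median log2 fold change of -0.421, against 0.0437 over all genes. Pdk1 fell farthest, with 22.6 and 35.7 RPKM in E9.5 PGC and 74.5, 144 and 102 RPKM in E7.75 epiblast (log2 fold change -1.82 ± 0.28, limma adjusted p = 0.000243). The 2 PGC libraries lay below all 3 epiblast libraries. Pgk1 fell by a similar amount, with 570 and 494 RPKM in E9.5 PGC and 1435, 1655 and 1506 RPKM in E7.75 epiblast (-1.52 ± 0.12, limma adjusted p = 9.17e-07). Ldha had 666 and 549 RPKM in E9.5 PGC and 1203, 1354 and 1353 RPKM in E7.75 epiblast (-1.10 ± 0.11). At this age both lactate dehydrogenase genes stood at like levels, Ldhb being at 464 and 586 RPKM.

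The members that rose at E9.5 were Pdp1, Pfkfb1, Ldhb, Pfkfb3 and Pdk3. Pdp1 had 36.8 and 20.3 RPKM in E9.5 PGC and 5.01, 0.794 and 3.16 RPKM in E7.75 epiblast (log2 fold change 2.999 ± 0.46, limma adjusted p = 0.00027). Pfkfb1 had 14.2 and 17.5 RPKM in E9.5 PGC and 4.17, 6.54 and 3.02 RPKM in epiblast (1.64 ± 0.37). The PGC values of both genes lay above all epiblast values. Ldhb had 464 and 586 RPKM in E9.5 PGC and 234, 222 and 180 RPKM in E7.75 epiblast (1.30 ± 0.14). Pdk3 had 81.4 and 75.3 RPKM in E9.5 PGC and 46.9, 43 and 31.4 RPKM in E7.75 epiblast (0.96 ± 0.14). Pfkfb3 had 11.6 and 10.2 RPKM in E9.5 PGC and 2.93, 8.25 and 3.32 RPKM in epiblast (limma adjusted p = 0.0453). In none of these 5 genes, picked because they passed, did PGC and epiblast values overlap. Pdhb and Slc16a1 were also higher in E9.5 PGC without overlap but did not pass. Of all tested genes, passed or not, 28.2% were higher without overlap. Slc2a1 did not pass at 179 ± 26.7 RPKM in E9.5 PGC and 243 ± 12.5 RPKM in epiblast (limma adjusted p = 0.114).

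The E9.5 libraries differed between themselves. Of the markers of other cells, their gut epithelium sums (365 and 541 RPKM) and endothelium sums (28.1 and 111 RPKM) parted as well. Their sums for extraembryonic mesoderm and mesenchyme were close. Pfkm had 4.65 and 17.4 RPKM and Pfkp 18.9 and 46 RPKM in E9.5 replicates 1 and 2. Without replicate 1, 8 members fell instead of 14, and Pfkp, Pfkm, Pfkl, Pkm, Slc16a3 and Gpi no longer passed, with limma adjusted p of 0.0558 for Pkm to 0.457 for Pfkm. The calls of Pfkfb3 and Pfkl were lost in 10 and 13 of the 18 fits that left out 1 library.

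The pathway fell further in the next step, E10.5 PGC against E9.5 PGC. In it 14 members fell and 1 rose, while 18.4% of all tested genes fell and 11.5% rose. The median log2 fold change was -0.478 over the members and -0.158 over all genes. With quantile normalization all genes had a median of 0.0273. Slc16a3 fell farthest, with 47.2 and 18.6 RPKM at E10.5 and 97.6 and 157 RPKM at E9.5 (log2 fold change -2.02 ± 0.34, limma adjusted p = 0.000618). Pdk1 had 8.89 and 7.24 RPKM at E10.5 and 22.6 and 35.7 RPKM at E9.5 (-1.71 ± 0.30). The E10.5 libraries were below those of E9.5 in both genes. Slc16a1 had 84.6 and 118 RPKM at E10.5 and 241 RPKM in each E9.5 library (-1.27 ± 0.17), so that both lactate transporters were low at E10.5.

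Ldhb was the member that rose at E10.5, with 1174 and 1064 RPKM, against 464 and 586 RPKM at E9.5 (log2 fold change 1.10 ± 0.15, limma adjusted p = 0.000146). These were its highest values, but its lower values at E11.5 did not pass against E10.5. Its share in lactate dehydrogenase was 78.8% at E10.5 and 46.4% at E9.5. The E10.5 libraries also had the largest RPKM sums over all genes, 849182 and 760137, against at most 747251 elsewhere. With quantile normalization the rise of Ldhb was 0.49 and did not pass (limma adjusted p = 0.0571). Pdk3, which had risen at E9.5, fell (-0.69 ± 0.16). The other members that fell were Pfkp, Pfkfb3, Slc2a1, Ldha (-1.001 ± 0.12), Pfkl, Hk2, Pgam1, Pkm, Hk1 and Gpi. When the spread was taken from these 4 libraries alone, 2 members fell, and calls in either direction over all genes dropped to 10.7% from 29.9%. The count of falls was 9 without E9.5 replicate 2 and 9 without E10.5 replicate 1, and that of rises was 3 without E9.5 replicate 2.

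Changes from E10.5 to E12.5 were few. At E11.5 against E10.5, Pgk1, Ldha, Eno1 and Aldoa fell and no member rose (3.61% and 3.59% of all tested genes). By limma at an unadjusted p under 0.05 the counts were 6 lower and 6 higher (10.2% and 11.7% of all tested genes). Pgk1 fell to 198 and 244 RPKM at E11.5, against 461 and 380 RPKM at E10.5 (log2 fold change -0.93 ± 0.14, limma adjusted p = 0.00176), and Ldha to 164 and 168 RPKM at E11.5, against 315 and 288 RPKM (-0.86 ± 0.12). Aldoa fell by 0.45 ± 0.12 but stood at 0.12 with quantile normalization (limma adjusted p = 0.411). None of the 4 passed with the spread of these 4 libraries alone, under which calls over all genes dropped to 0.724% from 7.19%, and 2 passed without E11.5 replicate 2. Dlat and Pfkm rose when either E9.5 library was left out, Slc16a1 and Pfkfb4 without E10.5 replicate 2, and Hk1 without E15.5 female replicate 2. Leaving out a library of another age changes the shared estimate of the spread and the set of genes tested, not the values compared.

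At E12.5 against E11.5, Slc16a1 and Ldha rose and no member fell (4.12% and 3.09% of all tested genes). At an unadjusted p under 0.05 in limma the counts were 7 higher and 0 lower (12.9% and 7.8% of all tested genes). Slc16a1 had 288 and 250 RPKM at E12.5 and 138 and 145 RPKM at E11.5 (log2 fold change 0.91 ± 0.17, limma adjusted p = 0.00704), and so was again near its level in E9.5 PGC. Ldha had 272 and 265 RPKM at E12.5 and 164 and 168 RPKM at E11.5 (0.69 ± 0.12, limma adjusted p = 0.00438). The count of rises was 1 without E11.5 replicate 1 or without E12.5 replicate 1.

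Over the span from E9.5 to E12.5, with E12.5 PGC set against E9.5 PGC, 10 members fell and 5 rose (11.9% and 11.3% of all tested genes). Slc16a3 fell to 17.5 and 19.1 RPKM at E12.5, against 97.6 and 157 RPKM at E9.5 (log2 fold change -2.69 ± 0.34, limma adjusted p = 6.77e-05). Pdp1 rose most, with 105 and 118 RPKM at E12.5 and 36.8 and 20.3 RPKM at E9.5 (1.98 ± 0.51, limma adjusted p = 0.0113). Without E9.5 replicate 2 this was 1.57 and did not pass (limma adjusted p = 0.0856). Pfkm rose with 26.4 and 29.6 RPKM at E12.5 and 4.65 and 17.4 RPKM at E9.5 (1.51 ± 0.43), and Pfkfb1 with 46 and 31.5 RPKM at E12.5 and 14.2 and 17.5 RPKM at E9.5 (1.22 ± 0.40). Ldhb rose with 900 and 899 RPKM at E12.5 and 464 and 586 RPKM at E9.5 (0.78 ± 0.15). Pdhb rose with 192 and 197 RPKM at E12.5 and 135 and 165 RPKM at E9.5 (0.38 ± 0.13). Pfkfb1 and Pdhb passed narrowly (limma adjusted p = 0.0419 and 0.0429). Their calls were lost in 10 and 11 of the 18 fits that left out 1 library. Ages did not overlap in the 5 genes that rose, which were picked because they passed. Hk1, Slc16a1, Pdk4 and Pfkfb4 were also higher at E12.5 without overlap but did not pass. Of all tested genes, passed or not, 28.7% were higher without overlap. Without E9.5 replicate 1 the rise of Pfkm was 0.66 and did not pass (limma adjusted p = 0.232). The falls were those of Slc16a3, Pfkp, Pfkl, Ldha, Slc2a1, Pdk1, Pgk1, Pgam1, Pkm and Eno1. The count of rises was 1 without E12.5 replicate 2, 2 without E9.5 replicate 1, and 3 without E12.5 replicate 1, E9.5 replicate 2, the E7.25 female library or E7.75 male replicate 1.

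**Figure D4:**
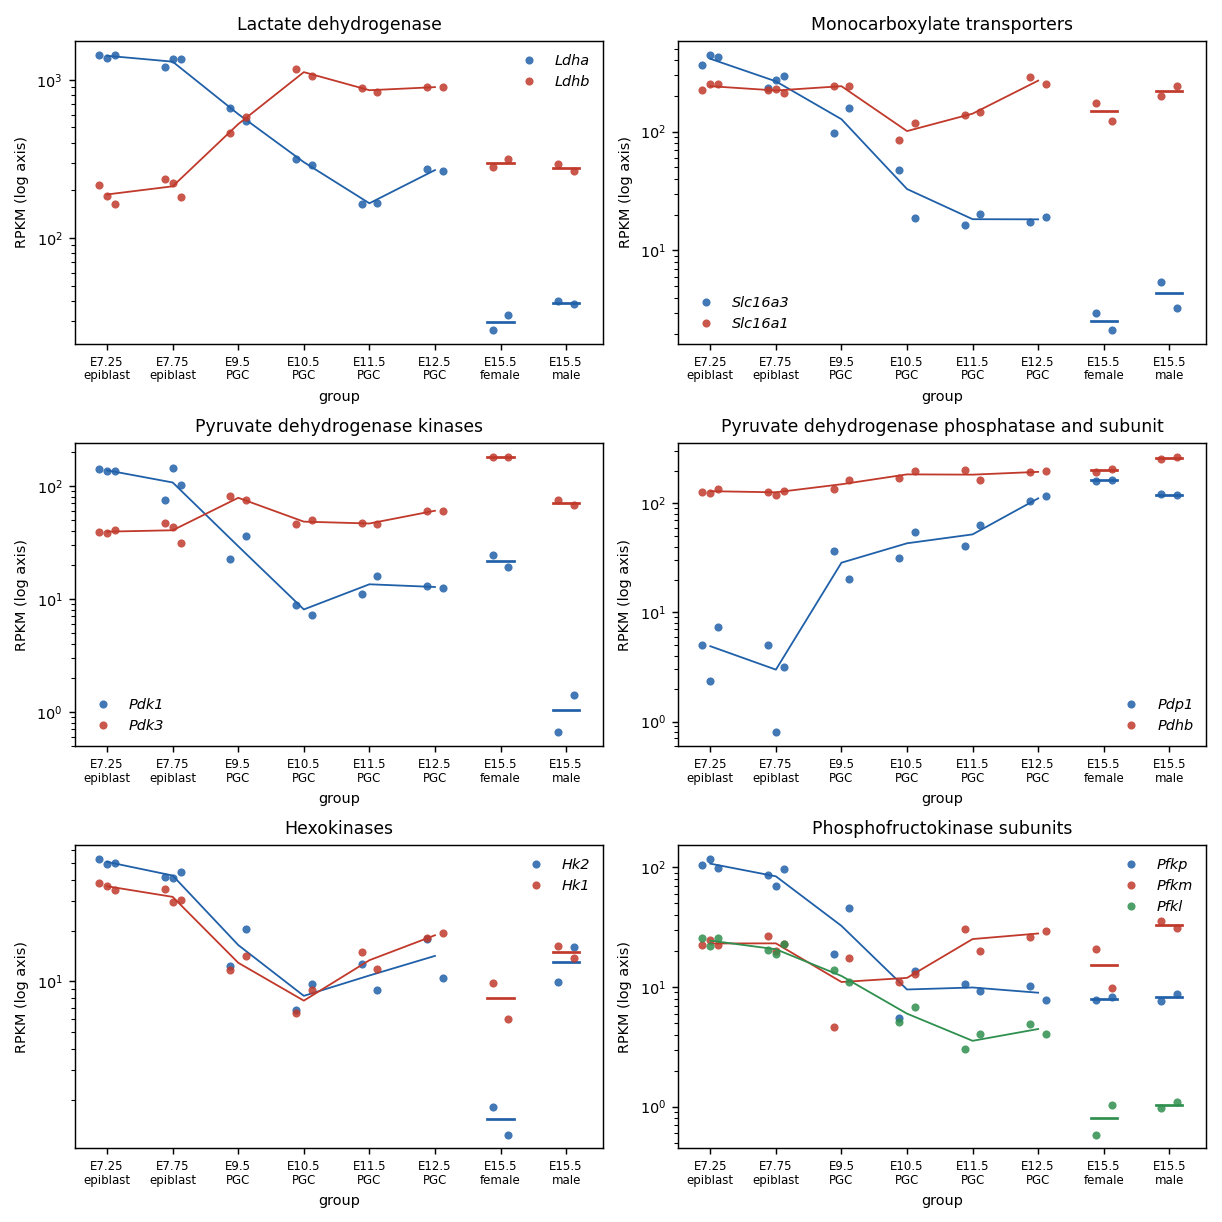
RPKM (log axes) of the main isoforms by group in order of age; points are libraries, lines join group means up to E12.5, and bars mark the means of female and male E15.5 PGC. The means of Ldha and Ldhb cross between E9.5 and E10.5, Pdp1 is at 120 RPKM and above at E15.5 and at 0.794 to 7.32 RPKM in epiblast, and Pdk1 parts between the sexes at E15.5.

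At E15.5 Ldha, Ldhb and Slc16a3 were lower than at E12.5 in PGC of both sexes. Of the members 14 were lower and 1 higher than at E12.5 (8.27% and 6.81% of all tested genes), with a median log2 fold change of -0.595, against 0 over all genes. Ldha fell farthest, with 26.1 and 32.8 RPKM in female and 39.8 and 38 RPKM in male E15.5 PGC, against 272 and 265 RPKM at E12.5 (log2 fold change -2.96 ± 0.11, limma adjusted p = 1.45e-09). Here Ldhb fell as well, with 280 and 317 RPKM in female and 293 and 264 RPKM in male E15.5 PGC, against 900 and 899 RPKM at E12.5 (-1.64 ± 0.13, limma adjusted p = 3.96e-06). All 4 E15.5 libraries lay below E12.5 for both genes. The summed RPKM of both subunits was 328 ± 30.9 in female and 318 ± 21.4 in male E15.5 PGC, against 1168 ± 5.18 at E12.5. Slc16a3 fell to 2.97 and 2.13 RPKM in female and 5.47 and 3.26 RPKM in male E15.5 PGC, against 17.5 and 19.1 RPKM at E12.5 (-2.16 ± 0.30).

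Enzymes above lactate fell as well. Pgam1 (log2 fold change -1.22 ± 0.13), Pkm (-1.07 ± 0.11), Eno1 (-0.93 ± 0.08), Aldoa (-0.92 ± 0.11), Slc2a1 (-0.88 ± 0.19) and Gpi (-0.71 ± 0.10) were lower than at E12.5 in limma. Pfkl fell to 0.924 ± 0.233 RPKM at E15.5, against 4.46 ± 0.627 RPKM at E12.5 (-1.51 ± 0.23). Hk1 and Slc16a1 also fell. Hk2 and Pdk1 were called lower on the mean of both sexes but overlapped with E12.5: Pdk1 had 24.3 and 19 RPKM in female and 0.659 and 1.42 RPKM in male E15.5 PGC, against 13.1 and 12.4 RPKM at E12.5, so it was lower in male PGC and higher in female PGC. The calls of these 4 genes and of Slc2a1 were lost without 1 or the other E12.5 library (highest limma adjusted p = 0.195, for Slc16a1). Pdk3 was the member that rose, with 178 and 181 RPKM in female and 74.3 and 67 RPKM in male E15.5 PGC, against 60.4 and 60 RPKM at E12.5 (0.89 ± 0.14, limma adjusted p = 0.000638). Pgk1 did not pass at 226 RPKM in E15.5 and 271 RPKM in E12.5 PGC, nor did Pdp1 at 141 RPKM in E15.5 and 111 RPKM in E12.5 PGC. Marker lists moved over the same step. Mesenchyme genes summed to 5.74 to 7.67 RPKM in female and 19.2 to 22.4 RPKM in male E15.5 PGC, against 1.84 to 4.67 RPKM at E12.5. Gut epithelium genes summed to 20 to 20.9 RPKM in female and 4.85 to 10.6 RPKM in male E15.5 PGC, against 43 to 47.2 RPKM at E12.5. Extraembryonic mesoderm genes summed to 26.7 to 29.1 RPKM in female and 8.86 to 15.6 RPKM in male E15.5 PGC, against 5.94 to 11.6 RPKM at E12.5. Their part in the results was not tested.

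Female and male PGC were compared at E15.5, the only PGC age with labelled sex. Hk2, Hk1, Aldoa, Pgam1, Eno1, Pkm and Slc16a1 were lower in female PGC, and Pdk1, Pdk3 and Pgk1 were higher. Slc2a1, Gpi, the phosphofructokinase subunits, Ldha, Ldhb and Slc16a3 did not pass. Of the 30 members 7 were lower and 3 higher in female PGC (5.35% and 4.33% of all tested genes), with a median log2 difference of -0.175, against 0 over all genes. Pdk1 differed most: it had 24.3 and 19 RPKM in female and 0.659 and 1.42 RPKM in male PGC (log2 difference 3.49 ± 0.30, limma adjusted p = 8.89e-06). The male values are near 1 RPKM, where the size of a ratio is ill determined: with a pseudocount of 0.1 the difference was 4.33. Both E12.5 libraries lay between the sexes. Pdk3 had 178 and 181 RPKM in female and 74.3 and 67 RPKM in male PGC (1.34 ± 0.16, limma adjusted p = 0.000148). Its female values were the highest of all 18 libraries. The summed RPKM of the 4 kinase genes was 215 ± 3 in female and 78.2 ± 1.21 in male PGC. Pgk1 was higher in female PGC, with 243 and 298 RPKM, against 174 and 188 RPKM in male PGC (0.57 ± 0.14) and lost its call without either male library or female replicate 2. Pgk1, Pdk3 and Pfkfb1 are X-linked genes, and Pfkfb1, with 34.9 and 50.1 RPKM in female and 22.5 and 20.1 RPKM in male PGC, did not pass (0.94, limma adjusted p = 0.176).

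Hk2 was lowest in female PGC, with 1.81 and 1.24 RPKM, against 9.87 and 16 RPKM in male PGC (log2 difference -2.44 ± 0.31, limma adjusted p = 0.000274). It was 16.3% of the summed RPKM of Hk1 and Hk2 in female and 45.9% in male PGC. Hk1 was lower in female PGC as well, with 9.85 and 6.02 RPKM, against 16.2 and 13.7 RPKM in male PGC (-0.87 ± 0.23). Both hexokinases were thus lower without overlap between the sexes. Aldoa (-0.95 ± 0.12), Pkm (-0.85 ± 0.13), Pgam1 (-0.71 ± 0.15), Slc16a1 (-0.59 ± 0.17) and Eno1 (-0.52 ± 0.10) were lower in female PGC by limma, the call of Slc16a1 being lost in 15 of the 18 fits that left out 1 library. Those of Hk1 and Pgam1 were lost without female replicate 2 or male replicate 1, and that of Hk1 also without male replicate 2. Pkm had 41.6 and 33.5 RPKM in female and 65.5 and 71 RPKM in male PGC.

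Neither Ldha nor Ldhb passed between the sexes. Ldha averaged 29.4 ± 4.76 RPKM in female and 38.9 ± 1.25 RPKM in male PGC (limma adjusted p = 0.0554). With quantile normalization Ldha passed as lower in female PGC (log2 difference -0.401, limma adjusted p = 0.02). Pdhb had 200 ± 6.46 RPKM in female and 263 ± 7.74 RPKM in male PGC and did not pass (limma adjusted p = 0.0717). Pdp1, at 160 and 165 RPKM in female and 121 and 120 RPKM in male PGC, did not pass either. With the spread of the 4 E15.5 libraries alone, 2 members were lower, and calls over all genes dropped to 6.03% from 9.68%. Without male replicate 1, 4 members were lower. Marker genes of the somatic gonad summed to 3.41 to 7.18 RPKM in female and 12.7 to 16 RPKM in male libraries, and the sums for mesenchyme, gut epithelium and extraembryonic mesoderm given above also differed between the sexes. The part of these lists in the differences between the sexes was not tested.

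**Figure D5:**
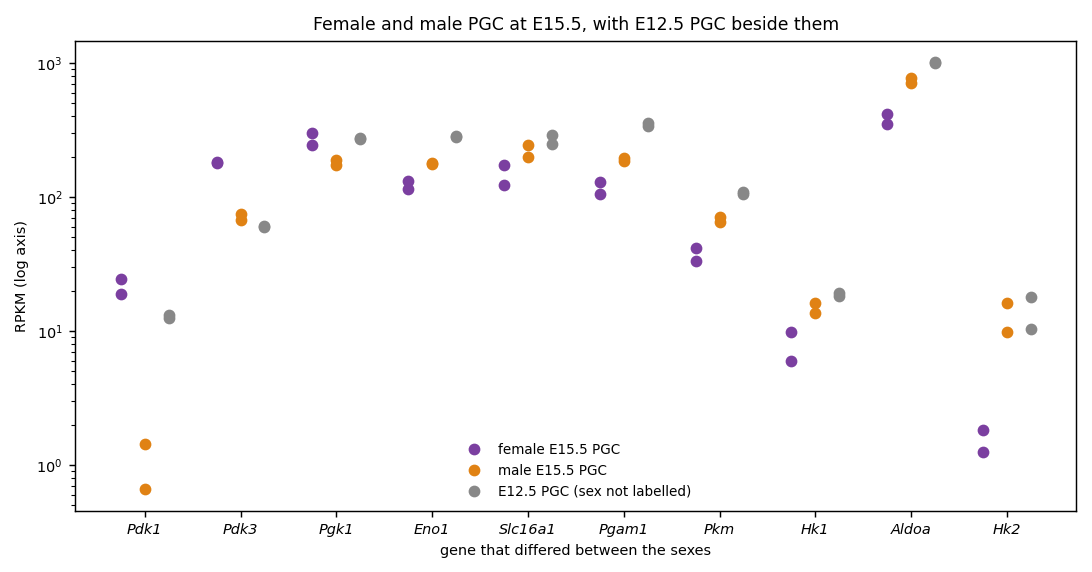
RPKM (log axis) of the 10 members that differed between the sexes at E15.5, with 1 point per library; female, male and E12.5 PGC stand side by side for each gene. Pdk1 at 19 and 24.3 RPKM in female PGC lies above E12.5 and at 0.659 and 1.42 RPKM in male PGC below it, and Hk2 is lowest in female PGC.

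Genes around the pathway were counted in lists of related function, for PGC against epiblast, where 32.1% of all tested genes rose and 26.4% fell. Of 10 tested genes of mitochondrial pyruvate entry 6 rose and 2 fell. Mpc1, a subunit of the mitochondrial pyruvate carrier, rose most, to 97.7 ± 39.9 RPKM in PGC, against 19.2 ± 4.02 RPKM in epiblast (log2 fold change 2.19 ± 0.14), and Vdac1, a pore of the outer membrane, fell most (-1.48 ± 0.09). Of 17 genes of the tricarboxylic acid cycle 9 rose and 3 fell, with Sucla2 (1.07 ± 0.10) and Idh3a (-0.97 ± 0.12) at the extremes. Of 7 genes of the serine and glycerol branches 4 fell and 1 rose: Phgdh, the first enzyme of serine synthesis, was at 43.3 ± 29.2 RPKM in PGC and 290 ± 23 RPKM in epiblast (-3.13 ± 0.12), and Psph rose (0.67 ± 0.13). Of 9 genes of the pentose phosphate pathway 4 rose and 4 fell, with Pgls (1.29 ± 0.18) and Prps2 (-4.56 ± 0.12) at the extremes.

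Of 20 hypoxia response genes outside glycolysis 12 fell and 2 rose in PGC, against 26.4% and 32.1% of all tested genes. Bnip3, a mitophagy receptor, fell most, to 12.3 ± 11.7 RPKM in PGC, against 94.6 ± 29.1 RPKM in epiblast (log2 fold change -3.15 ± 0.33). Egln3, a prolyl hydroxylase that acts on hypoxia-inducible factors, rose (1.60 ± 0.15). Among regulators of glycolysis genes 7 of 18 fell and 5 rose, with Lin28a (-2.51 ± 0.08) and Nr5a2 (3.33 ± 0.17; 9.73 RPKM in PGC and near 0 in epiblast) at the extremes. Among these, Vhl, which marks hypoxia-inducible factors for decay, rose to 25 ± 6.8 RPKM in PGC, against 6.05 ± 2.52 RPKM in epiblast. It was picked after its values were seen. In the same list Hif1a passed as lower, at 78.25 RPKM in PGC and 87.06 RPKM in epiblast. Hif1an (15.48 RPKM in PGC and 9.998 RPKM in epiblast) and Epas1 (0.7271 and 0.08514 RPKM) passed as higher. Of 10 genes of gluconeogenesis and glycogen 5 fell and 3 rose, with Fbp1 (-2.36 ± 0.22) and Pygl (1.24 ± 0.17) at the extremes, and of 12 other isoforms of glycolytic enzymes 6 rose and 4 fell, with Slc2a12 (1.85 ± 0.23) and Pgm1 (-2.32 ± 0.26) at the extremes.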

How the data were processed

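Per the labels' protocols, RNA came from a PicoPure kit and libraries from a SMART-Seq v4 kit for very little RNA. The authors deposited RPKM values per gene in 1 table. Build rn6 is named in the submitters' processing notes, as are Cufflinks 2.2.1, TopHat2 2.1.0, cutadapt 1.14 and bcl2fastq 2.18.0.12. The annotation release, strand setting and handling of reads with several matches are, in the sources used here, not given. Read counts were not used here, and depth per library was estimated only relative to another library.

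Values were analysed as log2(RPKM + 1) with limma 3.58.1 in R 4.3.3, in 1 fit of 8 groups and 18 libraries with 10 residual degrees of freedom and trended empirical Bayes. A fold change on this scale understates the change of low genes. Lines with at least 1 RPKM in at least 2 libraries were kept, and p-values were adjusted by Benjamini-Hochberg within each comparison, with a threshold of 0.05. PGC against epiblast is the mean of the PGC group coefficients against that of epiblast. Fold values in RPKM are ratios of group means. Members, pathway lists and markers were chosen with earlier results of these data known. For each comparison the text names the largest rise and fall and every member that moved against the majority, and for each pathway list the largest rise and fall among genes that passed. Group values are given for members whose mean reached 100 RPKM in any group. Vhl was chosen after its values were seen. Members were counted by the first line of Pkm. None of the deposited identifiers matched the RefSeq table (0), so symbols were used as deposited. Python 3.11.15 with matplotlib 3.10.9 made the figures. The fits were tested on simulated data. Alternatives were a pseudocount of 0.1, no filter, quantile normalization, the compared libraries alone, a replicate block, PGC and epiblast as 2 groups, and fits without single libraries or whole ages.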

Additional observations from a re-analysis of the deposited data

Results flagged for a closer look

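Dlat, the E2 subunit of pyruvate dehydrogenase, had 10.7 RPKM in female E15.5 replicate 2, apart from the other 3 E15.5 PGC libraries at 13.1 to 13.6 RPKM. This was 1 of 60 groups examined for a lone library, and chance gives such a library in about 1 of 20 groups.

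For Pdk1 both female E15.5 PGC libraries lay above both E12.5 libraries and both male libraries lay below them. The log2 difference, female minus male, was 3.49 (limma adjusted p = 8.89e-06). For Pfkm, the muscle phosphofructokinase, both female libraries, at 20.8 and 9.77 RPKM, lay below E12.5, and both male libraries, at 35.4 and 30.9 RPKM, lay above. Its log2 difference of -1.15 did not pass (limma adjusted p = 0.115), and without either E9.5 library, which changes the shared estimate of the spread and not these values, it did (lowest limma adjusted p = 0.0211).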

How the results depend on the processing

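Alternatives that kept every library or left out whole ages gave 1455 member results. Of these, 1375 kept their call or stayed without one, 65 lost their call, 14 gained one and 1 reversed. Direction was compared only where 1 of the fits called the result, so changes of sign among uncalled results are not counted. Aldoa at E11.5 against E10.5 stood at 0.116 with quantile normalization. That setting also gave 0 members higher at E10.5, 2 lower at E11.5 and 4 higher at E12.5 against E11.5. With the spread of the compared libraries alone, 2 were lower at E10.5, 0 lower at E11.5, 4 higher at E12.5 against E11.5, 3 higher at E12.5 against E9.5 and 2 lower in female against male PGC. The cause was not tested, beyond that these fits have fewer libraries.

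The fits that left out 1 library gave, for PGC against epiblast, 5 to 6 members higher and 17 to 18 lower, and 0 of either for E7.75 against E7.25. They gave 4 to 5 higher and 8 to 15 lower at E9.5, 1 to 3 higher and 9 to 14 lower at E10.5, 0 to 2 higher and 2 to 5 lower at E11.5, and 1 to 3 higher and 0 lower at E12.5 against E11.5. For E12.5 against E9.5 they gave 1 to 6 higher and 8 to 11 lower, for E15.5 1 higher and 10 to 14 lower, and for female against male PGC 2 to 3 higher and 4 to 9 lower. A lone library left in a group is assumed to vary like the other groups.

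Same-numbered replicates of the PGC groups did not deviate together over all tested genes (correlations -0.133 to 0.0581). Epiblast was not examined, and a pairing that acts on few genes would not show in such correlations. With a replicate block, PGC against epiblast again had 5 members higher and 17 lower. Over all comparisons the block ended 7 calls (Pfkfb3 and Pfkl at E9.5, Hk2 at E10.5, Aldoa at E11.5, Pdhb and Pfkfb1 at E12.5 against E9.5, Slc16a1 between the sexes) and added 3 (Slc2a1 at E9.5, Gpi and Pdk4 at E12.5 against E9.5).

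Groups of 2 libraries limit the steps between ages, depth limits low members at E10.5 and E11.5, and copies limit the levels of abundant enzymes. Members near 0 bear no statement on their steps.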
